A study of Homo sapiens with 7 samples.

Results

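The 30 genes described here make cholesterol and fatty acids or control their making, and are targets or partners of the sterol regulatory element-binding proteins (SREBPs). They were chosen by gene symbol, with older symbols accepted (SC5D is listed as SC5DL on the array), out of 18336 genes with a symbol. Each gene was read from its probe with the highest mean over the 7 arrays. All 30 had a probe, and all 30 lay among the 12835 genes kept above the dim level, the 30th percentile of mean signal. The genes fall into 4 roles: 7 of the mevalonate pathway, 11 of the sterol branch, 5 regulators or sterol carriers, and 7 of fatty acid synthesis and desaturation.

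Cells make cholesterol from acetyl-CoA by way of mevalonate, farnesyl diphosphate, squalene and lanosterol. SREBF2 and SREBF1 encode the transcription factors SREBP-2 and SREBP-1, which are held in the endoplasmic reticulum with their escort SCAP by the INSIG proteins while membranes hold enough sterol. When sterol is low, SCAP carries them to the Golgi, where they are cleaved, and the released fragments enter the nucleus and switch on genes of sterol and fatty acid synthesis. The liver is a main site of both pathways, and Huh7, a line grown from a human hepatoma, is widely used for work on hepatitis viruses and lipid metabolism.

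Huh7 cells in medium with fetal bovine serum were left untreated or kept for 6 h or 16 h with 10 IU/ml of IFN-α, a type I interferon, or with 20 ng/ml of a type III interferon, either IFN-λ1 or IFN-λ4. Type III interferons act through a receptor of their own. Total RNA of each culture was labelled with Cy5, with 1 array for each of the 6 treated conditions and 1 for untreated cells at 0 h. With 1 culture per condition, a difference between single arrays has no p-value, the doses of IFN-α and IFN-λ are in different units, and time in culture cannot be told apart from treatment in comparisons with the untreated array.

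The median deposited intensity of the 31741 probes lay between 494 and 633 units on the 7 arrays, and the number of arrays limits precision. Hepatocyte and hepatoma markers were all present, 8 of 8 above the dim level, with ALB (albumin) at 190368 units on the untreated array. The 3 fibroblast and 3 endothelial markers were all above the dim level too, so passing that level did not separate cell types. After quantile scaling the summed untreated signals were 1636220 units for hepatocyte and hepatoma markers, 4438 units for fibroblast and 3785 units for endothelial markers. The leukocyte markers PTPRC and CD3E were dim on all 7 arrays, at 35 to 92 units, while CD14 and MS4A1 had signal. The summed leukocyte markers were 3699 units untreated and 4395 to 9187 units on the treated arrays after quantile scaling, highest with IFN-α at 16 h, and their part in the values below was not tested. Interferon-response genes were higher on all 6 treated arrays, with ISG15 at 1437 units untreated and 21468 to 43325 units treated. Differences are given as log2 of treated over untreated after quantile scaling, which gives all arrays the same distribution of signals, and again after median centring, which only shifts each array. Median centring moved the median of all genes to 0.22 with IFN-α at 6 h, -0.17 with IFN-α at 16 h and 0.22 with IFN-λ4 at 6 h, so the direction of small differences depended on the scaling.

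Against untreated cells, a small group of the 30 genes was lower past 2-fold after IFN-α and most were not. With IFN-α at 6 h, 7 of the 30 lay past 2-fold on the lower side (FADS2, MVK, MVD, SREBF2, IDI1, INSIG1 and HSD17B7), against 2.84% of all genes. Under median centring the count was 4 (MVK, MVD, SREBF2 and FADS2), against 2.15% of all genes. With IFN-α at 16 h, 4 were lower (MVK, SREBF2, STARD4 and FADS2, against 3.46% of all genes), and 3 under median centring (3.83%), where STARD4 stood at -0.94. With IFN-λ4 at 6 h MVK, SREBF2 and FADS2 were lower under both scalings, against 1.24% of all genes with quantile scaling and 0.857% with median centring.

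No member was 2-fold lower with IFN-λ1 at 6 h (0.662% of all genes), IFN-λ1 at 16 h (0.234%) or IFN-λ4 at 16 h (0.195%), nor with median centring (0.506%, 0.179% and 0.164%). No member was 2-fold higher at 6 h with IFN-α, IFN-λ1 or IFN-λ4, where 3.93%, 1.07% and 2.05% of all genes were, or at 16 h, where 5.79%, 0.958% and 0.989% were. Median centring gave 0 members higher as well, against 5.71%, 1.12% and 3.5% of all genes at 6 h and 4.92%, 1.02% and 1.1% at 16 h. The values next to the 2-fold line were -1.03 for HSD17B7 and -0.97 for SQLE with IFN-α at 6 h, -0.71 for MVD with IFN-α at 16 h, where STARD4 lay on the line, and -1.21 for SREBF2 and -0.80 for IDI1 with IFN-λ4 at 6 h. Over the 30 genes the median difference with IFN-α at 6 h was -0.28 with quantile scaling, where all genes had 0.01, and 0.07 with median centring, where all genes had 0.22. With IFN-α at 16 h it was -0.28 against -0.08, and -0.44 against -0.17. On the 4 IFN-λ arrays the median lay between -0.20 and -0.03 with quantile scaling and between 0.06 and 0.16 with median centring, so its sign there depended on the scaling. All genes had -0.03 to 0.03 and 0.05 to 0.22 there. With IFN-λ4 the members' median minus that of all genes was -0.22 and -0.06 at 6 h and 16 h with quantile scaling. It was -0.07 and -0.02 with median centring. With IFN-λ1 it was -0.03 at both times with quantile scaling, and 0.01 and 0.02 with median centring.

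**Figure D1:**
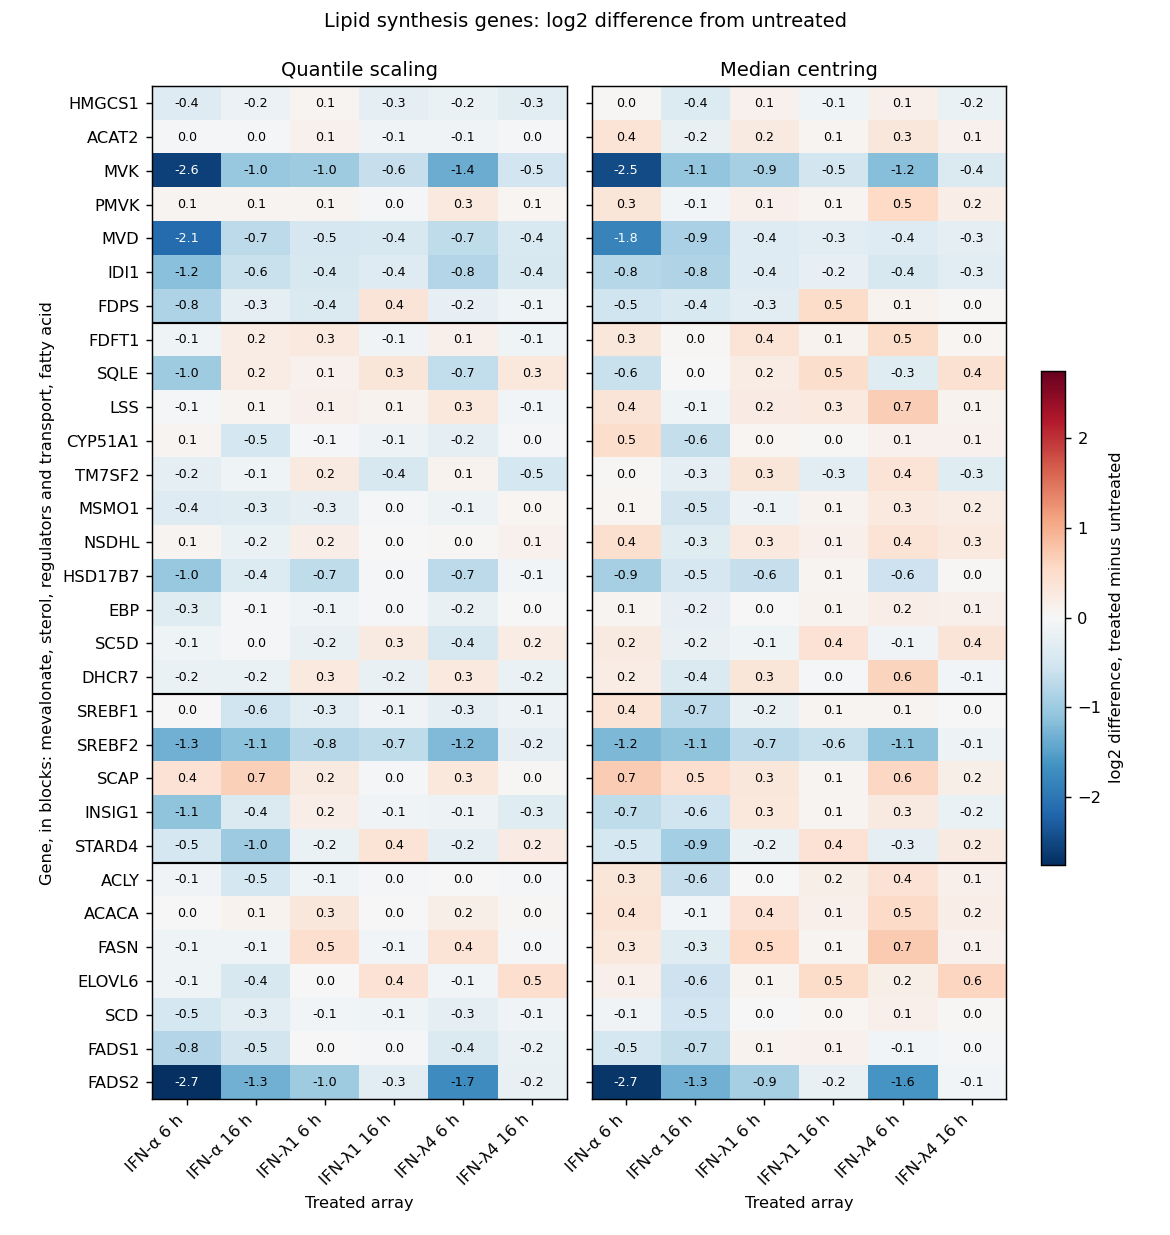
Log2 difference of each of the 30 genes (rows, in 4 role blocks) from the untreated array on the 6 treated arrays (columns), with quantile scaling on the left and median centring on the right; each cell is 1 array against 1 array. MVK, MVD, SREBF2 and FADS2 are the dark cells with IFN-α at 6 h under both scalings, while most other cells are pale.

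**Figure D2:**
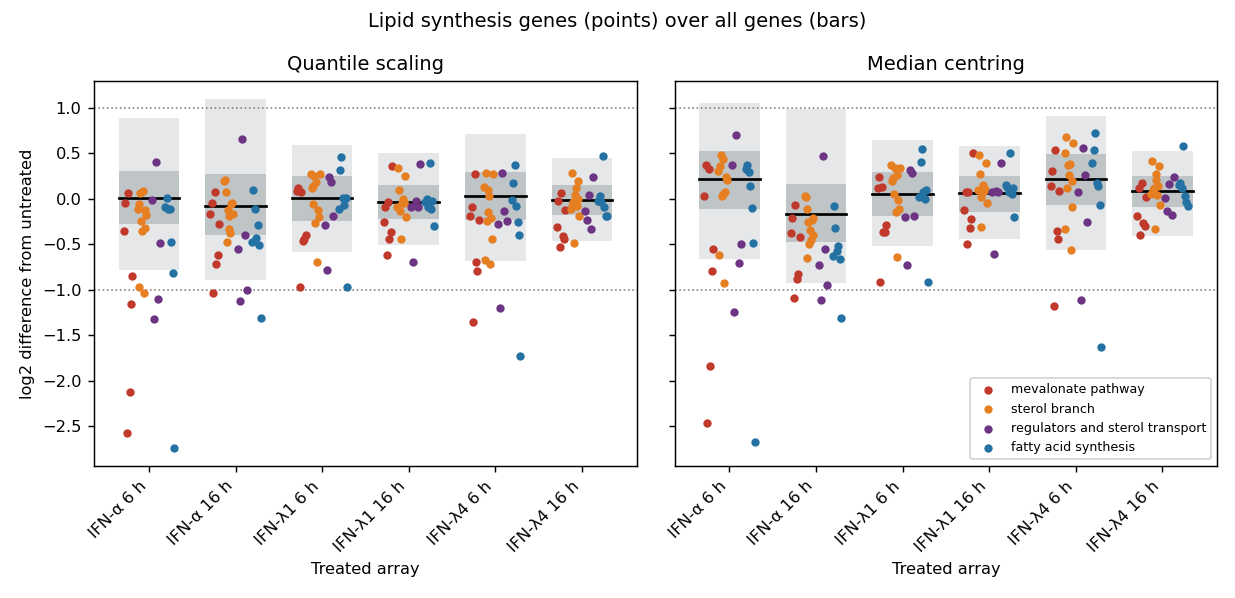
Log2 difference from untreated of the 30 genes (points, coloured by role) on each treated array, over the 5th to 95th percentile (pale bar), the 25th to 75th percentile (dark bar) and the median (line) of the 12835 genes. Most points lie inside the bars, and with IFN-α at 6 h MVK, MVD and FADS2 lie far below the pale bar under both scalings.

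On the probe with the highest mean, MVK and MVD of the mevalonate pathway held the lowest values outside FADS2. MVK (mevalonate kinase, which puts the first phosphate on mevalonate) gave 4679 units untreated, 690 and 2274 units with IFN-α after 6 h and 16 h, 2451 and 3002 units with IFN-λ1, and 1724 and 3211 units with IFN-λ4. The untreated array was the highest of the 7, and for each interferon the 6 h array was lower than the 16 h array. Its fold below untreated was 5.93 with IFN-α at 6 h, 2.05 with IFN-α at 16 h and 2.56 with IFN-λ4 at 6 h. MVD (mevalonate diphosphate decarboxylase, which makes isopentenyl diphosphate) gave 26993 units untreated, 6131 and 15161 units with IFN-α, 20669 and 19571 units with IFN-λ1, and 17679 and 20319 units with IFN-λ4. MVD was likewise highest untreated, and the IFN-α array at 6 h stood apart, 4.36-fold lower than untreated against 1.33-fold to 1.64-fold on the other 5 treated arrays.

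IDI1, the isomerase that acts on the product of MVD, gave 46032 units untreated, 21562 and 26959 units with IFN-α, 35262 and 35628 units with IFN-λ1, and 28252 and 33784 units with IFN-λ4. Its difference with IFN-α at 6 h was -1.16 with quantile scaling and -0.79 with median centring. FDPS (farnesyl diphosphate synthase) had 12587 units untreated and 6982 units with IFN-α at 6 h, a difference of -0.85, and 16093 units with IFN-λ1 at 16 h. A dimmer FDPS probe stood at -0.29 and 0.49 with IFN-α at 6 h and 16 h. On the probe with the highest mean the remaining genes, HMGCS1 (which makes HMG-CoA), ACAT2 (a cytosolic acetoacetyl-CoA thiolase) and PMVK (phosphomevalonate kinase), stayed between -0.36 and 0.27 on all 6 treated arrays. A dimmer ACAT2 probe stood at -0.78 with IFN-α at 6 h and between 0.19 and 0.30 on the other treated arrays. MVK and PMVK encode consecutive kinases, and PMVK gave 6892 units untreated and 7019 units with IFN-α at 6 h, where MVK was at its lowest. The median of the 7 genes with IFN-α at 6 h was -0.85, and -0.55 with median centring.

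The 11 sterol branch genes turn farnesyl diphosphate into cholesterol. On the probe with the highest mean, HSD17B7 was the only one of them past 2-fold. HSD17B7, a ketosteroid reductase of the demethylation steps, gave 2929 units untreated, 1253 and 2219 units with IFN-α, 1847 and 2811 units with IFN-λ1, and 1656 and 2730 units with IFN-λ4. All 3 arrays of 6 h were lower than all 3 of 16 h, and the IFN-λ arrays of 16 h were within 0.08 of untreated on the log2 scale. SQLE (squalene epoxidase, a rate-setting step) had 22539 units untreated, 11946 and 23700 units with IFN-α, 25513 and 28487 units with IFN-λ1, and 14986 and 27181 units with IFN-λ4. SQLE was below untreated with IFN-α and IFN-λ4 at 6 h, at -0.97 and -0.68, and above it on the other 4 treated arrays. The other members were FDFT1 (squalene synthase), LSS (lanosterol synthase), CYP51A1 (lanosterol demethylase), TM7SF2, MSMO1, NSDHL, EBP, SC5D and DHCR7. On the probe with the highest mean all of these were under 2-fold on every treated array. A dimmer MSMO1 probe stood at -1.48 and -2.30 with IFN-α and IFN-λ4 at 6 h. The median of the 11 with IFN-α at 6 h was -0.17, and 0.21 with median centring.

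Among the regulators, SREBF2 passed 2-fold with IFN-α and with IFN-λ4 at 6 h, and SREBF1 stayed under it. SREBF2 gave 1994 units untreated, 684 and 957 units with IFN-α, 1186 and 1185 units with IFN-λ1, and 772 and 1644 units with IFN-λ4. The differences were -1.32, -1.12, -0.79, -0.69, -1.21 and -0.24 in that order, and between -1.24 and -0.14 with median centring. SREBF1 had 27672 units untreated, 29018 and 17400 units with IFN-α, 23696 and 26317 units with IFN-λ1, and 24363 and 25275 units with IFN-λ4. It was near untreated with IFN-α at 6 h, at -0.01, where SREBF2 was at its lowest, and reached -0.55 with IFN-α at 16 h. SREBF1 was under 2-fold on all 6 arrays under both scalings.

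SCAP, the escort of the SREBPs, gave 7392 units untreated, 9742 and 10636 units with IFN-α, 9039 and 7092 units with IFN-λ1, and 9101 and 7486 units with IFN-λ4. On the probe with the highest mean, SCAP held the highest difference of the 30 genes with quantile scaling, 0.65 with IFN-α at 16 h, which is under 2-fold. INSIG1, the retention protein and itself a textbook SREBP target, gave 34618 units untreated, 17172 and 24474 units with IFN-α, 41486 and 32896 units with IFN-λ1, and 34559 and 27663 units with IFN-λ4. Both IFN-α arrays were below untreated, at -1.10 and -0.39, or -0.71 and -0.55 with median centring, while the IFN-λ1 array of 6 h was above it. A dimmer INSIG1 probe was below untreated on every treated array, at -0.34 with IFN-λ1 at 6 h. STARD4, a cytosolic sterol carrier, had 607 units untreated, 350 and 328 units with IFN-α, 527 and 721 units with IFN-λ1, and 426 and 651 units with IFN-λ4. With STARD4 both IFN-α arrays were the lowest of the 7, and the IFN-λ arrays of 16 h were above untreated.

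In fatty acid synthesis, FADS2 stood far from the genes that build the chain when each gene was read from its probe with the highest mean. FADS2, the desaturase that starts the conversion of dietary polyunsaturated fatty acids, gave 2681 units untreated, 340 and 1120 units with IFN-α, 1406 and 2109 units with IFN-λ1, and 723 and 2305 units with IFN-λ4. Its fold below untreated was 6.69 and 2.48 with IFN-α at 6 h and 16 h and 3.32 with IFN-λ4 at 6 h. Its value with IFN-α at 6 h, -2.74, was the lowest of the 30 genes on any array, and median centring gave -2.68. FADS1, the next desaturase of that route, had 16401 units untreated, 9498 and 10784 units with IFN-α, 17320 and 16148 units with IFN-λ1, and 13054 and 14522 units with IFN-λ4. FADS1 was lower with IFN-α, at -0.81 and -0.51, but under 2-fold. ACLY (which supplies cytosolic acetyl-CoA), ACACA (acetyl-CoA carboxylase) and FASN (fatty acid synthase) lay between -0.48 and 0.47 on all 6 arrays. So did ELOVL6 (an elongase) and SCD (which desaturates stearate). A dimmer ACLY probe stood at -2.60 and -1.13 with IFN-α at 6 h and 16 h. It stood at -2.34 with IFN-λ4 at 6 h, so the contrast of ACLY with FADS2 depended on the probe.

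**Figure D3:**
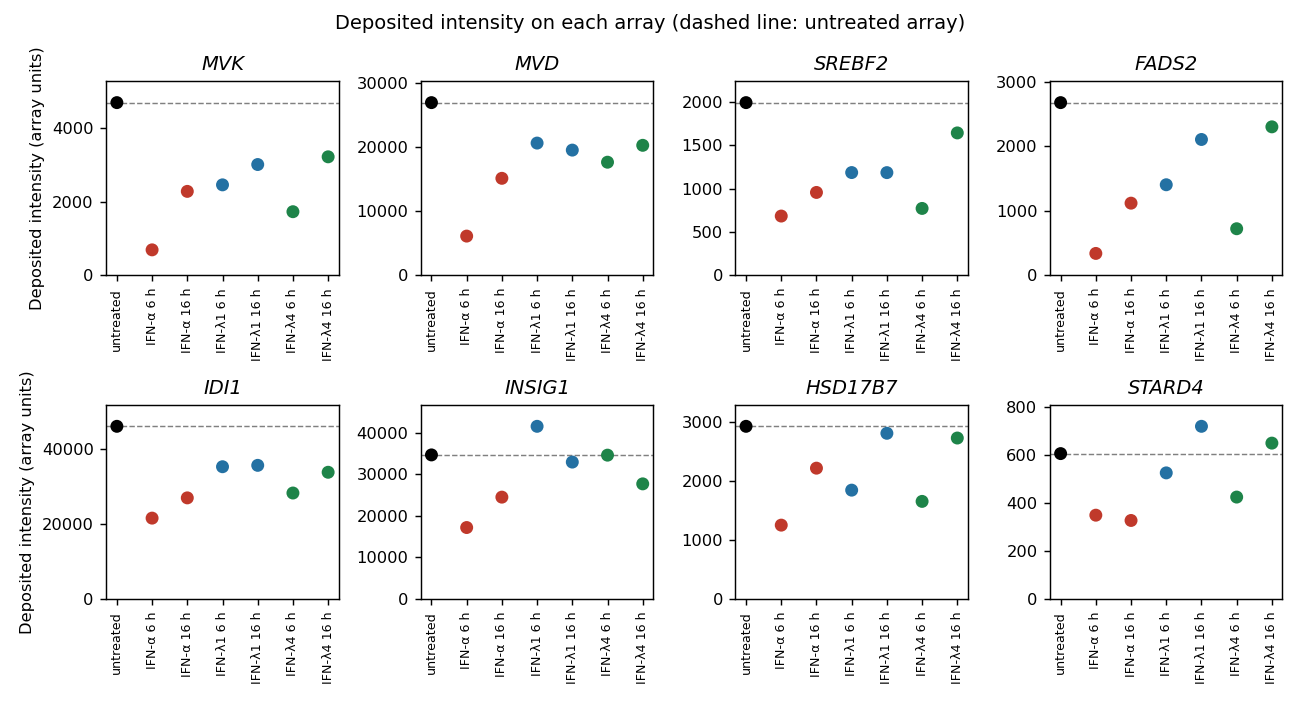
Deposited intensity (linear axis from 0, array units) on each of the 7 arrays for the 8 genes at least 2-fold lower than untreated on a treated array with quantile scaling; each point is 1 array and the dashed line is the untreated array. FADS2 is at 2681 units untreated and 340 units with IFN-α at 6 h, and 2305 units with IFN-λ4 at 16 h.

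SREBF2, MVK, MVD and FADS2 were the 4 genes 2-fold lower under both scalings when read from the probe with the highest mean. Their promoters are shown so that the control elements can be read beside these values. They are the 250 bases before the transcription start from RefSeq on GRCh38.p14, at chr22:41832855-41833104 (plus strand) for SREBF2, chr12:109573544-109573793 (plus strand) for MVK, chr16:88663092-88663341 (minus strand) for MVD and chr11:61815953-61816202 (plus strand) for FADS2. Capitals mark TCACCCC, the core of the classical sterol regulatory element that SREBPs bind, and CCAAT on either strand (ATTGG when it is on the other one), which the factor NF-Y binds next to SREBP sites in many sterol genes.
SREBF2: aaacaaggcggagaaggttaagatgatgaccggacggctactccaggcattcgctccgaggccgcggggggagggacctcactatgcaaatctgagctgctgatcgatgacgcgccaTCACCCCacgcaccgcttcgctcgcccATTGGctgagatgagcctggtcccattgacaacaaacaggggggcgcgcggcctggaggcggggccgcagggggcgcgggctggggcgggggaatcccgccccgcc
MVK: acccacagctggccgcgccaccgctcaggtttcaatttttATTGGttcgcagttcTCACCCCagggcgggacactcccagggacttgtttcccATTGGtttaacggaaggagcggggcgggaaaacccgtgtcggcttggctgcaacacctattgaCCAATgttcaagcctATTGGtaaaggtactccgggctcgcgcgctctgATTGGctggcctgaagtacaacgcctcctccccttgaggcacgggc
MVD: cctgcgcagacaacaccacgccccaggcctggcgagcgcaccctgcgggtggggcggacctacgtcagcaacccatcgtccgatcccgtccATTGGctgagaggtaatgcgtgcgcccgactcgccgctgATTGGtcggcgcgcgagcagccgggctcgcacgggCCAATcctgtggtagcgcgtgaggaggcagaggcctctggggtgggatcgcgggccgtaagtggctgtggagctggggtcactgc
FADS2: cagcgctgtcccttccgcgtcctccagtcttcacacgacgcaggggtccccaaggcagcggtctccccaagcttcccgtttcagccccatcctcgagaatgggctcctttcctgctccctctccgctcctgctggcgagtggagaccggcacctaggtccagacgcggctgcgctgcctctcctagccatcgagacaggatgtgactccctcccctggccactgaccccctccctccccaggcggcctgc

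Of the 26 members with a promoter window, TCACCCC was in that of SREBF2, 133 bases before the start, and in that of MVK, 195 bases before it. These are 2 of the members' 35 windows, and 4.80% of all 35116 windows held it. The shown windows hold CCAAT 5 times for MVK, 3 times for MVD, once for SREBF2 and in no place for FADS2. CCAAT was in 23 of the 35 windows, from 19 members, and in 32.0% of all windows. GGGCGG, a GC box bound by SP1, was in 31 of the 35, from 25 members, and in 42.6% of all windows. CACGTG, an E box, was in 4 of the 35, from INSIG1, SC5D and SCAP, and in 6.34% of all windows. Both strands were searched for these 4 motifs, a gene could have more than 1 window, and a match or its lack says nothing of binding. MVK starts 290 bases from MMAB, a cobalamin enzyme gene on the opposite strand. On the brighter of its 2 probes MMAB was at -0.33 with IFN-α at 6 h, where MVK was at -2.57. That probe gave 3831 units untreated and 2845 units treated, and the other MMAB probe is not described here. FADS1 and FADS2 also start close together on opposite strands, 599 or 800 bases apart depending on the FADS2 start.

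The 4 genes MVK, HSD17B7, SREBF2 and FADS2 were also alike in brightness. When the 12835 genes were cut into 4 equal classes by mean signal, they were the 4 members of the second class, and with IFN-α at 6 h all 4 were 2-fold lower, against 3.74% of genes in that class. The brightest class held 21 members, of which 3 were lower on that array (MVD, IDI1 and INSIG1), against 1.62% of genes there. The third class held 4 members (PMVK, TM7SF2, SCAP and ELOVL6), of which 0 were lower on that array, against 2.71% of genes there. STARD4, the 1 member of the dimmest class, was not 2-fold lower on that array, against 3.30% of genes there. Probe brightness is not a transcript level, and whether dimmer and brighter probes respond alike was examined with genes that have another probe.

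For 8 members 2 probes were above the dim level, and the dimmer probe gave the lower value of the pair in 7 of them with IFN-α at 6 h and in 3 or 4 on each other treated array. Dimmer probes also tended lower on that IFN-α array over all 2731 genes with such a pair. There the median of dimmer minus brighter was -0.15, and -0.52 over the 8 members. The share of all pairs with the dimmer probe lower is not given here. ACLY's dimmer probe gave 8282 units untreated, 1229 and 3711 units with IFN-α, 5191 and 8601 units with IFN-λ1, and 1553 and 7856 units with IFN-λ4. That probe stood at -2.60 with IFN-α at 6 h and -2.34 with IFN-λ4 at 6 h, where ACLY's brighter probe stood at -0.09 and -0.01. MSMO1, a methylsterol oxidase, had -1.48 and -2.30 on its dimmer probe on those arrays and -0.35 and -0.14 on its brighter one. INSIG1's dimmer probe was at -1.96 and -1.45 with IFN-α at 6 h and 16 h, and at -1.06 with IFN-λ4 at 6 h. With median centring the dimmer probes of ACLY, MSMO1 and INSIG1 stood at -2.45, -1.40 and -1.84 with IFN-α at 6 h. IDI1's probes gave nearly the same value with IFN-α at 6 h, -1.16 and -1.19, and opposite directions at 16 h, -0.62 and 0.19. Over the 2731 genes of the array with such a pair, the dimmer probe was 2-fold lower relative to the brighter one in 10.7%, 2.78% and 8.20% with IFN-α, IFN-λ1 and IFN-λ4 at 6 h, and in 5.79%, 0.622% and 0.476% at 16 h. Among the 8 members these were 2 (MSMO1 and ACLY), 0 and 2 (MSMO1 and ACLY) at 6 h, and 1 (INSIG1), 0 and 0 at 16 h. The dimmer probe was 2-fold higher relative to the brighter one in 3.55%, 1.43% and 2.49% of the pairs at 6 h, with 0 members, and in 3.92%, 1.03% and 0.696% at 16 h, with 0, 2 and 1 members. MVK, MVD, SREBF2, FADS2, HSD17B7 and STARD4 have 1 probe each, so their values have no such comparison, and where each probe lies in its transcript was not analysed here.

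**Figure D4:**
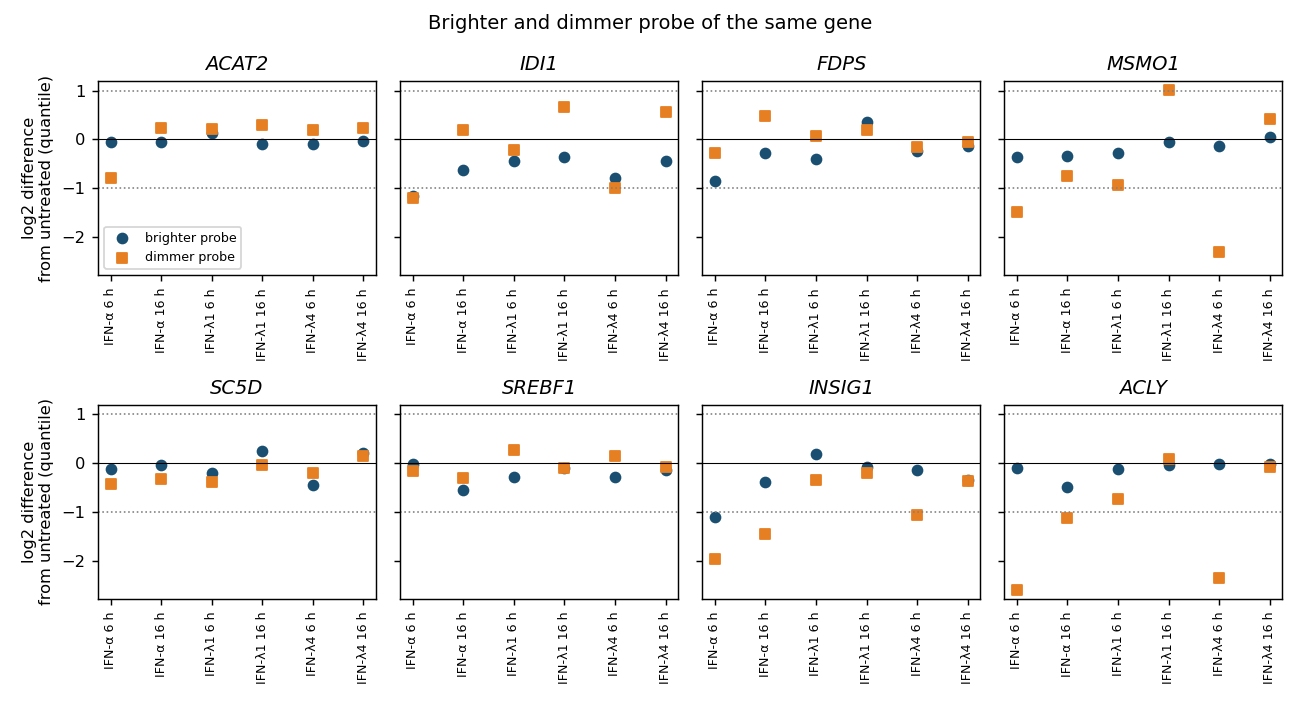
Log2 difference from untreated with quantile scaling on each treated array for the brighter (circles) and dimmer (squares) probe of the 8 members with 2 probes above the dim level. The probes of ACLY and MSMO1 part widely with IFN-α and IFN-λ4 at 6 h and lie close together with IFN-λ4 at 16 h for ACLY, while those of SC5D stay within 1 log2 unit of each other throughout.

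When all 6 treated arrays were set against the untreated one with limma, no member passed an adjusted p of 0.05, in either direction. Of the 12835 genes 14 were higher (0.109%) and 1 lower (0.00779%), and 257 had an unadjusted p under 0.05. Of the members 2 had such a p, SREBF2 with -0.89 ± 0.39 (SE) and IDI1 with -0.64 ± 0.28, both with a Benjamini-Hochberg adjusted p of 0.999 in limma. MVK, at -1.18 ± 0.61, and FADS2, at -1.21 ± 0.76, had larger mean differences and a larger error. The treated arm of this fit mixes interferons and times, and the untreated arm is 1 array.

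IFN-α was compared with the mean of both IFN-λ, with time as a block and without the untreated array. The members most below 0 in IFN-α against IFN-λ were FADS2, MVK and MVD. limma found 0 of the 30 members past an adjusted p of 0.05, against 18 of all genes higher (0.14%) and 2 lower (0.0156%). At an unadjusted p under 0.05 there were 2239 of the 12835 genes and 7 of the 30 members. FADS2 stood at -1.23 ± 0.24 (SE; limma, adjusted p = 0.0915), MVK at -0.93 ± 0.27 (limma, adjusted p = 0.165) and MVD at -0.92 ± 0.29 (limma, adjusted p = 0.192). STARD4, INSIG1, FADS1 and FDPS were the other members at an unadjusted p under 0.05. Their differences were -0.79, -0.65, -0.51 and -0.46, with limma adjusted p-values of 0.196 to 0.283. FDPS was read here from its brighter probe. Against untreated its dimmer probe stood at -0.29 and 0.49 with IFN-α at 6 h and 16 h, and between -0.16 and 0.20 with the IFN-λ. SREBF2 at -0.49 and ELOVL6 at -0.47 lay further below 0 than FDPS, with limma adjusted p-values of 0.349 and 0.341. Without the IFN-λ4 arrays FADS2 passed, with -1.39 (limma, adjusted p = 0.00831), when 334 genes were higher and 92 lower, and without the IFN-λ1 arrays it did not, with -1.07 (limma, adjusted p = 0.231), when 22 were higher and 2 lower. Each of these fits has 1 residual degree of freedom. IFN-λ4 against IFN-λ1, which had the same dose, gave 0 genes and 0 members past the threshold, with 307 genes and 0 members at an unadjusted p under 0.05. FADS2 differed between them by -0.33 ± 0.27 and SQLE by -0.43 ± 0.26, both with a limma adjusted p of 1.00.

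Several members were higher at 16 h than at 6 h of the same interferon. From 6 h to 16 h, MVK, MVD, SQLE and FADS2 were at least 2-fold higher with IFN-α, by 1.53, 1.41, 1.17 and 1.43 on the log2 scale (4.33% of all genes were). No member was 2-fold lower, against 3.97% of all genes. Under median centring MVK and FADS2 kept this (2.71% of all genes), and 2 other members were 2-fold lower, CYP51A1 at -1.13 and SREBF1 at -1.09, where 10.2% of all genes were. FADS2 was 2-fold higher with IFN-λ4, by 1.54 (1.6% of all genes were, and 1.34% with median centring, where it was higher too). No member was 2-fold higher with IFN-λ1 (0.499%, or 0.623% with median centring), and none was 2-fold lower with IFN-λ1 (0.538%, or 0.491%) or IFN-λ4 (1.03%, or 1.68%). These counts rest on the brighter probe of each gene. From 6 h to 16 h the dimmer probe of MSMO1 was higher by 1.94 with IFN-λ1 and 2.72 with IFN-λ4. That of ACLY was higher by 1.47 with IFN-α and 2.27 with IFN-λ4, and that of ACAT2 by 1.01 with IFN-α. That of IDI1 was higher by 1.38 with IFN-α and 1.57 with IFN-λ4. Relative to the brighter probe, the dimmer one was 2-fold higher at 16 h in 11.8%, 4.36% and 10.1% of the 2731 pairs with IFN-α, IFN-λ1 and IFN-λ4, and in 2, 1 and 3 of the 8 members. In the limma fit over all 3 interferons no gene passed, with 1943 of 12835 genes at an unadjusted p under 0.05. Of the 30 members 5 were among these, a share near that of all genes. They were FADS2 at 1.21 ± 0.22 (SE), MVK at 0.90 ± 0.25, SQLE at 0.78 ± 0.21, HSD17B7 at 0.65 ± 0.16 and FDPS at 0.48 ± 0.18, with limma adjusted p-values of 0.183 to 0.296. HSD17B7 was higher at 16 h by 0.65, 0.67 and 0.64 with IFN-α, IFN-λ1 and IFN-λ4, or by 0.47, 0.73 and 0.60 with median centring.

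Without the IFN-α arrays, 6 members rose and 4 fell from 6 h to 16 h in the 4 IFN-λ arrays, which is 20.0% and 13.3% of the 30 against 9.23% and 11.6% of all genes, so that the share that fell was near that of all genes. FADS2 rose by 1.10 ± 0.21 (SE; limma, adjusted p = 0.00779), HSD17B7 by 0.65 ± 0.14 (limma, adjusted p = 0.0135), SQLE by 0.59 ± 0.16 (limma, adjusted p = 0.0272) and MVK by 0.58 ± 0.16 (limma, adjusted p = 0.0299). SC5D, a late desaturase of the sterol branch, rose by 0.55 and ELOVL6 by 0.47. TM7SF2 (a sterol reductase) fell by 0.63 ± 0.12 (limma, adjusted p = 0.00839), FASN by 0.48 ± 0.10, DHCR7 (the last reductase of one route to cholesterol) by 0.47 ± 0.09 and FDFT1 by 0.31 ± 0.10, the last with a limma adjusted p of 0.0487. With median centring FADS2, HSD17B7, MVK, SQLE and TM7SF2 kept their call, SREBF2 and STARD4 rose too, and SC5D, ELOVL6, FASN, DHCR7 and FDFT1 did not pass, against 7.07% of genes higher and 11.8% lower, with 1 member lower. FADS2 did not pass for 16 h against 6 h without the IFN-λ1 arrays (limma, adjusted p = 0.433) or without the IFN-λ4 arrays (limma, adjusted p = 0.246). This fit has 1 residual degree of freedom, so limma took its spread mostly from other genes, and the arrays of a given time may share handling that was not recorded, which cannot be told apart from time.

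The intensities of the members that fell under quantile scaling follow, of which TM7SF2 alone passed under both scalings. TM7SF2 gave 9353 and 5486 units with IFN-λ1 at 6 h and 16 h and 8150 and 5424 units with IFN-λ4, with 7532 units untreated and 6216 and 6546 units with IFN-α. Untreated TM7SF2 therefore lay between the times of each IFN-λ. DHCR7 gave 119889 and 84603 units with IFN-λ1, 123349 and 83331 units with IFN-λ4, 90400 and 75868 units with IFN-α, and 96300 units untreated. FASN gave 120777 and 79954 units, 116268 and 82751 units, and 83575 and 69719 units in the same order, with 84168 units untreated. FDFT1 gave 115967 and 88077 units, 107429 and 85098 units, and 91170 and 96460 units, with 90780 units untreated. For DHCR7, FASN and FDFT1 the IFN-λ arrays of 6 h were the highest of the 7.

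SC5D and ELOVL6 had the opposite order, with the IFN-λ arrays of 16 h highest. SC5D gave 16431 and 21543 units with IFN-λ1, 14152 and 21007 units with IFN-λ4, 17311 and 16225 units with IFN-α, and 18069 units untreated. ELOVL6 gave 7169 and 8856 units, 6493 and 9376 units, and 6196 and 4842 units, with 6922 units untreated. Across the 30 genes the difference between times with IFN-λ1 and that with IFN-λ4, which come from 4 separate arrays, had a Pearson r of 0.77 and a Spearman rho of 0.82, with 14 genes (46.7%) higher at 16 h with both and 10 (33.3%) lower with both. Over all 12835 genes r was 0.56 and rho 0.60, with 31.7% higher with both and 40.1% lower with both. Under median centring 11 members were higher with both and 11 lower. Genes are not independent replicates, and these are descriptions of 4 arrays.

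**Figure D5:**
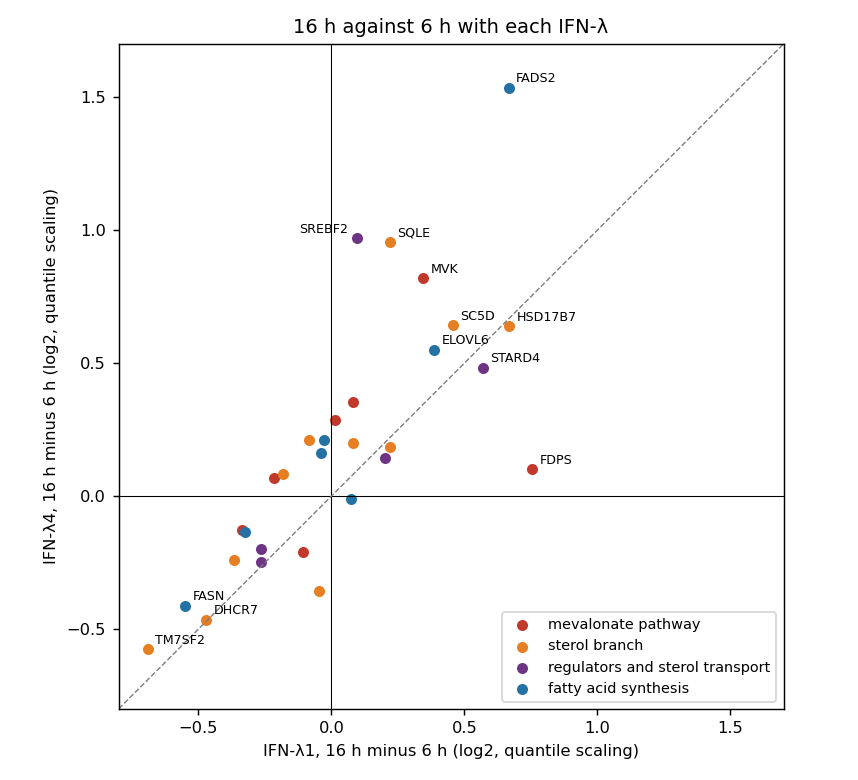
Log2 difference of 16 h against 6 h with IFN-λ1 (horizontal axis) and IFN-λ4 (vertical axis) for the 30 genes with quantile scaling, coloured by role; each axis is 1 array against 1 array and the dashed line marks equal values. FADS2, HSD17B7 and MVK lie in the upper right and TM7SF2, DHCR7 and FASN in the lower left, and FADS2 and SREBF2 lie well above the line.

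The neighbouring routes held single genes past 2-fold. Of 19 other sterol and SREBP genes 17 were above the dim level, and with IFN-α at 6 h 1 was 2-fold lower (against 2.84% of all genes), with 0 lower on the other treated arrays and 0 higher. It was GPAM, which starts glycerolipid synthesis, with 8246 units untreated and 3377 units with IFN-α at 6 h (-1.23, or -0.99 with median centring), while its dimmer probe stood at -0.50. ELOVL5, INSIG2 and ACSL3 of that list lay between -0.73 and 0.86. Of 11 genes of sterol efflux, esterification and the LXR response 7 were above the dim level, and LPCAT3, which remodels membrane phospholipids, was the 1 gene 2-fold lower with IFN-α and IFN-λ4 at 6 h, at -1.27 and -1.18, where 2.84% and 1.24% of all genes were. LPCAT3 gave 1474 units untreated, 514 and 818 units with IFN-α, 1004 and 1620 units with IFN-λ1, and 566 and 1509 units with IFN-λ4, so its lowest arrays were those where FADS2 was lowest. SOAT1, NR1H2 and MYLIP lay between -0.79 and 0.58, and CH25H, the interferon-inducible cholesterol hydroxylase, was dim on all 7 arrays at 142 to 272 units.

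Fatty acid oxidation, the opposing route, had CPT1A as its clearest gene. CPT1A, which admits long-chain fatty acids to mitochondria, gave 1577 units untreated, 4674 and 2694 units with IFN-α, 2845 and 1849 units with IFN-λ1, and 3645 and 2036 units with IFN-λ4. It was above untreated on all 6 treated arrays and higher at 6 h than at 16 h with each interferon, 3.14-fold higher than untreated with IFN-α at 6 h and 2.46-fold with IFN-λ4 at 6 h. A second probe of CPT1A, with 277 units untreated, gave 286 units with IFN-α at 6 h, 729 units at 16 h and 276 to 350 units with the IFN-λ, so that the 2 probes had the treated arrays in a different order. Of the 9 genes of this list above the dim level, 2 were 2-fold higher with IFN-α at 6 h (CPT1A and ACADL, against 3.93% of all genes) and 1 with IFN-λ4 at 6 h (CPT1A, against 2.05%). With IFN-α at 16 h ACADL, a long-chain acyl-CoA dehydrogenase, was 2-fold higher, at 1.35 (5.79% of all genes were), and PPARA, a nuclear receptor that drives the route, was lower, at -1.45 (3.46% of all genes were). ACADL passed the dim level but was faint, with a quantile-scaled log2 signal of 7.81 untreated. The log2 median of all probes on that array was 9.25 before scaling. HADHB lay between -0.53 and 0.20. limma called 0 genes of these 3 lists in each of its 4 comparisons, and CPT1A stood at -0.75 ± 0.17 (SE) for 16 h against 6 h with a limma adjusted p of 0.194.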

How the data were processed

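The deposited table, credited to the authors, holds 1 intensity per probe and array, and how it was scaled is not given in the sources used here. The depth of an array is its signal: 39 to 61 values per array were 0 or below. Values were set to at least 1, turned to log2 and quantile-normalized, with median centring as the other scaling. Of the 31741 probes 24740 had 1 symbol, 977 several and 6024 none, and 1948 symbols were updated through RefSeq. Single arrays were compared at 2-fold, and a limma 3.58.1 fit (R 4.3.3, variance trend, Benjamini-Hochberg at 0.05) ran over all 12835 genes. The fits within treated arrays had a block for interferon or time and 2 residual degrees of freedom, and that of treatment had 5. The limma steps were tested on simulated data. Other steps used Python 3.11.15, pandas 2.3.3, numpy 2.4.6 and matplotlib 3.10.9.

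The members and the comparison lists were chosen with earlier results of these data known. Values on all arrays were named for members 2-fold from untreated under both scalings, members past a limma threshold and the regulators SREBF1, SREBF2, SCAP and INSIG1, and up to 4 genes per comparison list by mean absolute difference. FDPS, SQLE, FADS1, IDI1, HSD17B7, STARD4, ACLY, MSMO1, PMVK, MMAB and CH25H were named after their values were seen. Scaling, dim filter, floor, probe rule, fold threshold, variance trend, block and left-out interferons were varied.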

Additional observations from a re-analysis of the deposited data

How the results depend on the processing

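With median centring the members 2-fold lower with IFN-α at 6 h numbered 4 instead of 7, and the members' median became 0.067 there, 0.059 and 0.080 with IFN-λ1 at 6 h and 16 h, and 0.16 and 0.071 with IFN-λ4. The median of all genes was 0.22, 0.053, 0.061, 0.22 and 0.088 on these arrays in the same order. The members' IFN-λ1 median at 6 h, -0.03, was also above 0 with the deposited scaling (0.038), a 50th percentile filter (0.0034) and the dimmer probe (0.0069). At 1.5-fold, 4 and 2 members were lower with IFN-λ1 at 6 h and 16 h and 7 with IFN-λ4 at 6 h, and 1 was higher with IFN-α at 16 h. At 3-fold, 3 were lower with IFN-α at 6 h, 0 at 16 h and 1 with IFN-λ4 at 6 h. The IFN-λ4 count at 6 h, 3 at 2-fold, was 5 with the mean over probes. It was 7 with the dimmer probe, against 2.48% of all genes. The dimmer probe also put 1 member higher with IFN-λ1 at 16 h, against 1.06% of all genes. Shares of all genes are not given for 1.5-fold, 3-fold or the mean over probes, so those counts cannot be read against all genes. Of the member values with a 2-fold call, 6 fell short: IDI1, HSD17B7 and INSIG1 with IFN-α at 6 h under median centring, and STARD4 with IFN-α at 16 h under median centring (-0.94), the deposited scaling (-0.89) and an offset of 50 (-0.89).

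In limma, treated against untreated gave 36 genes higher without the IFN-α arrays, and 2 lower with no dim filter or 0 with the 50th percentile filter. For 16 h against 6 h, 0 genes became 1185 higher and 1493 lower without IFN-α (members 6 and 4), 907 and 1515 with median centring as well (members 6 and 1), and 14 and 23 without IFN-λ4. For IFN-α against IFN-λ, 18 higher and 2 lower became 106 and 27 with median centring, 38 and 9 with the mean over probes, 4 and 0 with the 50th percentile filter, and 334 and 92 without IFN-λ4 (1 member lower). The lower count was 4 with the deposited scaling and with no filter. IFN-λ4 against IFN-λ1 had 1 gene higher with no filter and with the mean over probes. The cause was not tested. Another 265 recomputed counts and medians stayed within 1.5 times the count or kept their sign. The dimmer probe and the IFN-λ arrays with median centring were chosen after seeing the data. The fits within treated arrays paired arrays by interferon or by time, and no pairing by replicate number exists, as each condition was 1 array. Signal limits the dim genes: 30% of genes were left out, and array error was not measured.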
